A study of Mus musculus with 2 samples.

Results

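The 42 genes described here encode the integrins, the laminins and the other main proteins by which cells of the embryonic face hold on to a basement membrane. They were chosen by name: each is a listed mouse symbol whose Ensembl identifier has a row in both gene tables, and all 42 were found among the 43346 mouse gene rows, which lie within 69691 rows in all. The set holds 24 integrin subunits (16 alpha and 8 beta), 10 laminin chains and 8 other members, namely the linkers Nid1, Nid2, Hspg2 and Agrn, the laminin receptor Dag1, and the Fraser complex genes Fras1, Frem1 and Frem2. The RNA came from the facial prominences of B6NCrl mouse embryos at day 12.5 of development, with no treatment or genetic change named in the labels. There was 1 group of 2 libraries. Replicate 1 was made from a pool of 120 embryos and replicate 2 from 88, both sexes mixed, with 10 ng of RNA in each.

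A basement membrane is a thin sheet of matrix under epithelia and around vessels, muscle and nerve. Laminins, each a trimer of an alpha, a beta and a gamma chain, polymerise into one network on the cell surface, type IV collagen forms another, and nidogens, perlecan and agrin tie the networks together. Integrins are alpha-beta pairs that span the cell membrane, where the alpha chain largely sets which ligand is bound. In the face, the sheet separates surface and oral epithelium from mesenchyme derived from the neural crest. Epithelial cells typically carry integrin alpha chains Itga3 and Itga6 and the beta chain Itgb4, while mesenchymal cells carry fibronectin receptors.

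Markers of mesenchyme and of epithelium were both detected, and whether they set the face apart from other tissue was not tested. All 10 mesenchyme markers reached 1 TPM (a level that divides reads by transcript length and scales each library to a fixed total) in both libraries, from 330.8 ± 7.67 TPM for Msx1 to 21.5 ± 2.02 TPM for Alx4. The 10 epithelium markers did so too, from 95.5 ± 6.24 TPM for Krt14 to 5.89 ± 0.54 TPM for Grhl2. The median epithelial marker lay below the median mesenchymal one by 0.69 on the log2 scale in replicate 1 and by 0.90 in replicate 2. Errors are SDs over the libraries (n = 2). Mouse genes took 27073576 expected counts in replicate 1 and 38696856 in replicate 2. In such whole tissue RNA, fewer cells of a type and less RNA per cell cannot be told apart. The 8 muscle markers were all higher in replicate 2, by a median of 0.27 on a log2(TPM + 1) scale, and the 6 neuron markers were all lower, with a median difference of -0.38. Of the 6 cartilage markers 5 were lower in replicate 2, with a median difference of -0.29, down to -0.61 for Matn1. Muscle markers ran from 197.7 ± 24.2 TPM for Actc1 to 3.89 ± 0.78 for Chrna1, and cartilage markers from 336.9 ± 34.0 for Col2a1 to 3.50 ± 1.18 for Acan. Endothelial markers ran from 82.0 ± 2.21 TPM for Egfl7 to 8.53 ± 0.58 for Tek, and glial markers from 17.3 ± 0.08 for Erbb3 to 1.63 ± 0.08 for Cdh19.

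All 42 members were detected. None had under 3 expected counts in both libraries, against 23.0% of the 21474 annotated protein-coding genes, and the smallest count in any library was 27, for Itgae in replicate 1. In both libraries 37 of 42 members reached 1 TPM, against 61.8% of protein-coding genes. On average over the libraries 19 of 42 reached 10 TPM, against 42.4% of protein-coding genes, so the share at the higher level was close to the background. The 5 members under 1 TPM in at least 1 library were Itga10, Itgae, Itgal, Itgam and Itgb2, which are a collagen receptor chain and 4 integrins of blood cells.

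**Figure D1:**
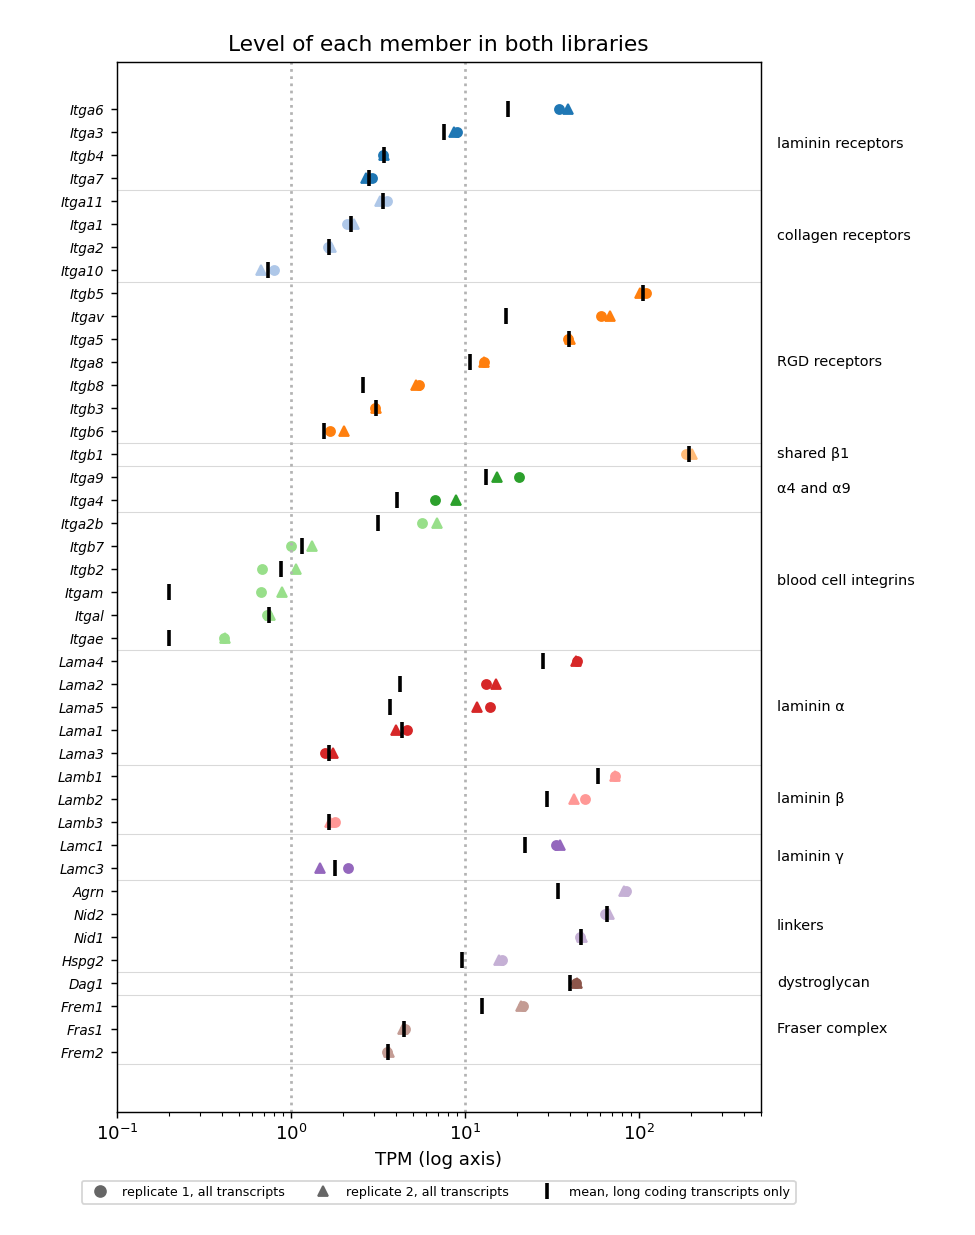
TPM of each of the 42 members on a log axis, grouped by role, with circles for replicate 1, triangles for replicate 2 and a black bar for the mean TPM of long coding transcripts alone. Itgb1 is the highest member at 195 TPM and Itgae the lowest at 0.41 TPM, and the bar lies well to the left of the symbols for Itgav, Lama2, Lama5 and Agrn.

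The shared beta chain Itgb1, which pairs with most alpha chains, was the highest member. Its level was 187.2 TPM in replicate 1 and 202.0 TPM in replicate 2, a mean of 194.6 ± 10.4, which placed it at percentile 96.6 of protein-coding genes. The gene lies on chromosome 8 from 128685654 to 128733200 on the plus strand (GRCm38). Nearly all of its level came from 1 annotated coding transcript, Itgb1-201, with 99.9% in each library. The 12 alpha chains known to pair with it (Itga1 to Itga11 and Itgav) had summed levels of 195.1 and 203.8 TPM in replicates 1 and 2. Their sum was therefore 1.03 ± 0.02 times the level of Itgb1.

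Among receptors for fibronectin, vitronectin and other ligands with an RGD motif, Itgb5 was the highest, at 109.4 and 101.8 TPM in replicates 1 and 2. It pairs with Itgav, whose 60.9 and 68.4 TPM made it the highest alpha chain by gene TPM. Itga5, the alpha chain of the classical fibronectin receptor, followed with 39.2 and 39.9 TPM. Itga8, a chain that binds nephronectin, had 12.9 TPM in both libraries. The other beta partners of Itgav were lower. Itgb8, which with Itgav activates latent TGF-beta, had 5.43 and 5.26 TPM, and Itgb3 had 3.04 and 3.09 TPM. Itgb6, an epithelial chain, was the lowest of the 7, with 1.67 and 2.02 TPM. Together the 3 RGD-binding alpha chains made up 57.9% of the summed alpha partners of Itgb1 in replicate 1 and 59.5% in replicate 2.

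Of the laminin receptor integrins, only Itga6 passed 10 TPM. Its level was 34.9 TPM in replicate 1 and 39.2 TPM in replicate 2. Itga3, its close relative, had 9.02 and 8.66 TPM. Itgb4, the beta chain of hemidesmosomes, which anchor epithelia to the basement membrane, had 3.38 and 3.43 TPM. Itga7, the laminin receptor of muscle, had 2.92 and 2.70 TPM. Its depth-scaled counts in replicate 2 were 0.92 times those in replicate 1, with a 95% interval of 0.76 to 1.11 that includes no difference, and the part of muscle in its level was not tested. The other laminin receptor, Dag1 or dystroglycan, had 43.3 and 44.2 TPM.

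The collagen receptors and the chains Itga4 and Itga9 were further groups. No collagen receptor alpha chain reached 10 TPM. Itga11, which binds fibrillar collagen in mesenchyme, was the highest of the 4 with 3.55 and 3.23 TPM. Itga1 had 2.10 and 2.30 TPM, Itga2 had 1.63 and 1.69 TPM, and Itga10, known from cartilage, had 0.80 and 0.67 TPM. Itga2 and Itga1 are neighbours on chromosome 13, 20995 bases apart. Itga10 is uncertain, since 33.5% of its exon bases are shared with the gene model Gm42957 on the same strand. These 4 made up 4.14% of the summed alpha partners of Itgb1 in replicate 1 and 3.87% in replicate 2. Itga9, a receptor for tenascin, had 20.4 TPM in replicate 1 and 15.2 in replicate 2. Itga4, a receptor for Vcam1 and fibronectin, had 6.73 and 8.83 TPM. The strand of the reads is not given, so reads from the 8.04% of its exon bases that overlap Cerkl on the opposite strand could belong to either gene.

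The 6 integrins named for blood cells were low except Itga2b, the alpha chain of the platelet fibrinogen receptor, with 5.65 and 6.91 TPM. Itgb7 had 1.00 and 1.32 TPM, and Itgb2, the beta chain of leukocytes, had 0.68 and 1.07 TPM. Itgam, of macrophages, had 0.67 and 0.89 TPM, Itgal had 0.73 and 0.76 TPM, and Itgae had 0.41 and 0.42 TPM. By gene TPM all 6 were nominally higher in replicate 2, by differences of 0.01 to 0.30 on the log2(TPM + 1) scale. For Itga2b, noncoding transcripts held 42.8% of the TPM in replicate 1 and 55.1% in replicate 2. Its coding transcript Itga2b-201 had 3.23 and 3.10 TPM, and its depth-scaled count ratio was 1.01. Markers of blood cells were detected in both libraries. The 8 platelet markers ran from 44.4 ± 6.48 TPM for Pf4 down to 0.17 ± 0.07 for Gp1ba, summing to 69.7 and 58.4 TPM in replicates 1 and 2. The 8 macrophage markers ran from 23.9 ± 0.81 TPM for C1qb to 2.98 ± 0.19 for Adgre1, with summed levels of 106.5 and 103.6 TPM. Of the 8 lymphocyte markers 4 were not detected, among them Cd3e and Cd8a with no counts in either library, while Lck had 9.73 ± 1.03 TPM. Their summed level was 11.2 TPM in replicate 1 and 12.1 in replicate 2. Neither the platelet nor the macrophage sum was higher in replicate 2, and what part blood cells had in the levels of these 6 integrins was not tested. Reads of Itgam are uncertain besides, since 68.7% of its exon bases are shared with the gene model Gm49368 on the same strand. The deposited Itgam level itself includes transcripts that GENCODE M21 names Gm49368-201 and Gm49368-202.

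The laminin chains gave an uneven set. Lamb1 was the highest, at 72.6 TPM in replicate 1 and 73.0 in replicate 2, and Lamb2 followed with 48.8 and 42.6 TPM. Lama4, the alpha chain of vessels and mesenchyme, had 44.2 and 43.5 TPM, and Lamc1, the common gamma chain, had 33.2 and 35.1 TPM. Lama2, known from muscle and nerve sheaths, had 13.2 and 15.2 TPM, and Lama5, the main alpha chain of embryonic epithelia, had 13.9 and 11.8 TPM. Lama1, the chain of the earliest embryonic basement membranes, had 4.65 and 4.00 TPM. Chains of the epidermal anchoring laminin were low: Lama3 had 1.56 and 1.75 TPM and Lamb3 had 1.78 and 1.68 TPM. Lamc3 had 2.13 TPM in replicate 1 and 1.46 in replicate 2.

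Summed over the members, the beta chains exceeded the other classes. The 3 beta chains came to 120.2 ± 4.17 TPM, the 5 alpha chains to 76.9 ± 0.95 TPM, and the gamma chains Lamc1 and Lamc3 to 35.9 ± 0.91 TPM. Beta chains were 1.56 ± 0.03 times the alpha chains and 3.35 ± 0.20 times these 2 gamma chains. A trimer takes 1 chain of each class, and the summed transcript levels of the beta and alpha chains did not stand in that ratio.

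Among the linkers, Agrn was the highest at 83.8 TPM in replicate 1 and 82.3 in replicate 2. Agrin is a proteoglycan that binds laminin and dystroglycan. Nid2 had 63.4 and 67.2 TPM and Nid1 had 45.6 and 47.3 TPM. Both nidogens join laminin to type IV collagen, and 8.45% of the exon bases of Nid2 overlap Rtraf on the opposite strand. Hspg2, or perlecan, had 16.4 and 15.7 TPM. In the Fraser complex, which holds embryonic epidermis to dermis, Frem1 had 21.6 and 21.1 TPM, Fras1 had 4.50 and 4.38 TPM, and Frem2 had 3.58 and 3.66 TPM. Frem1 is made largely by mesenchyme, and the other two by epithelium.

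Several of these levels rest on annotated transcripts that are short or noncoding. TPM divides counts by transcript length, so a few reads assigned to a short transcript weigh heavily. For each member the TPM was therefore also summed over long coding transcripts alone, meaning those annotated as protein-coding and at least 50% as long as the longest coding transcript of the gene. This measure was added after the values had been seen. Among the 19 members at 10 TPM or more, long coding transcripts held a median of 65.3% of the TPM and 95.4% of the expected counts. Over all 9111 protein-coding genes at that level the median share of TPM was 92.1%. For 5 of the 19, namely Itgav, Lama5, Lama2, Agrn and Itga6, the share of TPM was under 50%, and that held for 16.6% of protein-coding genes at this level. At the other end 5 members, Itgb1, Itgb5, Itga5, Nid1 and Nid2, had at least 99% of their TPM in such transcripts. Itga5, Nid1 and Nid2 have only 1 deposited transcript each, so their share was fixed at 100%. Such genes cannot lose level on the long coding scale, which limits comparisons with genes of several transcripts.

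**Figure D2:**
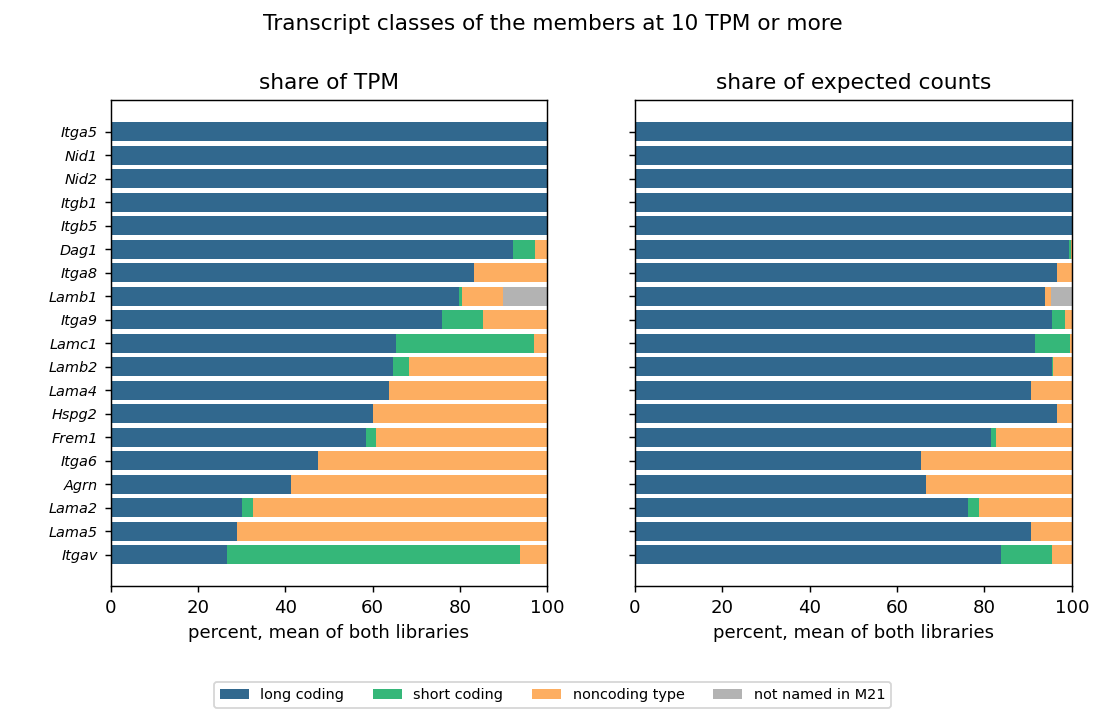
Share of TPM (left) and of expected counts (right) held by long coding, short coding, noncoding and unnamed transcripts, in percent as the mean of both libraries, for the 19 members at 10 TPM or more. Itgav has 26.7% of its TPM but 83.8% of its counts in long coding transcripts, while Itga5, with only 1 deposited transcript, is wholly long coding on both scales.

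Itgav is an example. Its transcript Itgav-205, of 463 bases against 7054 for the longest coding one, took 59.3% and 62.1% of the gene's TPM in replicates 1 and 2. The same transcript had 229.9 of 2453 and 383.3 of 3534 expected counts. Long coding transcripts of Itgav came to 17.2 TPM in each library. On that scale Itga5, which has only 1 deposited transcript, was the highest of the 16 alpha chains at 39.6 ± 0.54 TPM. Itga6 at 17.6 ± 1.80 and Itgav at 17.2 followed. Itga5 was also the highest alpha chain by counts scaled to library size (CPM), which take no account of length, with 108.8 ± 0.92 CPM against 91.0 ± 0.51 CPM for Itgav. Which alpha chain was the highest thus depended on the measure. The sum of alpha partners came to 0.62 ± 0.02 times Itgb1 on the long coding scale.

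The large laminin chains behaved in the same manner. Lama5-201, the full-length transcript of 11388 bases, held 27.6% and 30.5% of the Lama5 TPM, although it had 755.6 of 837 and 1007.8 of 1105 counts. Its long coding level was 3.72 ± 0.16 TPM. For Lama2, the 643-base retained-intron transcript Lama2-206 held 38.0% and 48.8% of the TPM, and the long coding level was 4.26 ± 0.17 TPM. Lama4 came to 28.0 ± 0.23 TPM and Lamc1 to 22.3 ± 0.58 TPM. Lamb1 stayed the highest chain, with 58.0 ± 2.64 TPM. On the long coding scale the beta chains were 2.12 ± 0.07 times the alpha chains, against 1.56 on the gene scale. Lama3 was nearly all long coding, though mostly from the shorter coding transcript Lama3-202, of 5551 bases, which held 94.3% and 96.9% of its TPM against 5.74% and 3.07% for Lama3-201 of 10548 bases.

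Of the linkers and the Fraser complex, Hspg2 fell to 9.64 ± 0.19 TPM on the long coding scale and Frem1 to 12.5 ± 0.49 TPM. Agrn came to 34.4 ± 1.59 TPM. Its leading transcript was Agrn-205, a retained-intron transcript of 2071 bases with 52.5% and 53.8% of the TPM. Nid2, which has only 1 deposited transcript and so could not change, stood above Agrn on that scale at 65.3 ± 2.65 TPM.

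The ends of several members are alternatively spliced, and the transcript tables bear on which end was used. The integrin alpha chains Itga3 and Itga6 each exist in an A and a B form with different cytoplasmic tails. In both genes the A form keeps an exon that the B form skips, and that exon holds the last codons of the A form. The coding parts of these exons are shown because they separate the forms. That of Itga3 is chr11:95046483-95046590 on the minus strand (GRCm38) with 108 bases, and that of Itga6 is chr2:71853534-71853638 on the plus strand with 105 bases. Capitals mark the longest run that both share, of 12 bases from position 4, just after the membrane-spanning part.
Itga3 A exon: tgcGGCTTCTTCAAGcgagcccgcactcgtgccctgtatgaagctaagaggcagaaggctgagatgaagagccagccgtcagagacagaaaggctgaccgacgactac
Itga6 A exon: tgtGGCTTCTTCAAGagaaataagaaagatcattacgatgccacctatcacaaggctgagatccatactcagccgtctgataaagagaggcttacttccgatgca

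For Itga3, the transcripts with the A exon, Itga3-201 and Itga3-202, had 609.8 expected counts in replicate 1 and 923.3 in replicate 2. The transcript that skips it, Itga3-203, had 0 in both. For Itga6, the coding A form Itga6-201 had 755.8 and 1555 counts, or 10.3 and 14.9 TPM, and the coding B form Itga6-202 had 413.8 and 341.5 counts, or 5.84 and 3.40 TPM. The A form was thus 63.7% (replicate 1) and 81.4% (replicate 2) of the TPM of this pair, a mean of 72.6 ± 12.5%. Another transcript, Itga6-203, is annotated as noncoding and also skips the A exon, with 12.5 and 13.5 TPM. With it counted, transcripts with the exon had 10.5 and 15.5 TPM and those without it 18.4 and 16.9 TPM. By expected counts the same sums were 769.1 with and 986.7 without the exon in replicate 1, and 1603 with and 1221 without it in replicate 2. With Itga6-203 counted, the order of the ends turned in both libraries by TPM and in replicate 1 alone by counts.

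The beta chains differed at their ends as well. The leading Itgb5 transcript, Itgb5-202, had 100.05 and 94.9 TPM, and Itgb5-201 had 9.39 and 6.64 TPM. Itgb5-202 uses 29 coding bases, at chr16:33947853-33947881 on the plus strand, that Itgb5-201 lacks. Because 29 is not a multiple of 3, the reading frame after it differs between the transcripts. The leading transcript held 92.4 ± 1.44% of the TPM of the pair. For Itgb4, Itgb4-202 lacks an exon of 159 coding bases that Itgb4-201 and Itgb4-204 carry. Transcripts with the exon had 0.39 and 0.80 TPM against 2.75 and 2.63 TPM for Itgb4-202, so that 17.9 ± 7.71% of this level carried it.
Itgb5-202 stretch: gtgagcgctccagggcccgttatgaaatg

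Agrin has forms that differ in where they act. One start of the protein gives a secreted form that binds laminin in basement membranes, and another gives a form held in the membrane of neurons. Near the other end, small exons mark the neuronal agrin that clusters acetylcholine receptors. The annotated transcript with the secreted start, Agrn-206, had 30.1 TPM in replicate 1 and 27.9 in replicate 2. Agrn-202, with the membrane-bound start, had 4.31 and 5.42 TPM. The secreted start was 85.6 ± 2.67% of this pair. Agrn-203 and the retained-intron transcript Agrn-207 also hold the coding bases of the membrane-bound start. All transcripts with those bases had 8.77 TPM in replicate 1 and 9.07 in replicate 2. The 3 small exons of Agrn-203, of 12, 24 and 33 bases on the minus strand, are at chr4:156169546-156169557, chr4:156168546-156168569 and chr4:156167777-156167809, and neither Agrn-206 nor Agrn-202 has them.
Agrn exon of 12 bases: aaatcccgcaag
Agrn exon of 24 bases: cgagctgaccaatgagatcccagc
Agrn exon of 33 bases: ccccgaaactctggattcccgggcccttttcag

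Transcripts with the exon of 33 bases, Agrn-203 and the retained-intron transcript Agrn-207, had 4.46 and 3.65 TPM. All transcripts that skip it, the retained-intron transcript Agrn-205 among them, had 78.4 and 77.6 TPM, so transcripts with its bases held 5.38% and 4.49% of this TPM. By expected counts the sums were 637 with and 5621 without it in replicate 1, and 769 with and 7808 without it in replicate 2. Agrn-207 alone had 3.36 and 3.65 TPM. Only the presence of the bases was checked, not whether they form a separate exon in Agrn-207. Over coding transcripts alone, Agrn-203 stood against 34.4 and 33.3 TPM without the exon, a share of 3.10% in replicate 1 and 0% in replicate 2. The coding transcript Agrn-203 itself had 137.3 counts in replicate 1 and 0.01 in replicate 2, so its own level was not settled by these libraries. The exon of 24 bases also lies inside Agrn-205, and the share that used it as an exon could not be read from the tables. The neuron markers, from 144.0 ± 31.9 TPM for Tubb3 to 41.4 ± 6.39 for Isl1, were abundant in both libraries, and the part of neurons in these forms was not tested.

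RefSeq promoter windows (build GRCm38.p6, from 250 bases before to 50 after a RefSeq start) were on hand for 28 of the 42 members. Such a start need not be that of the gene as annotated here. The windows of Itga9, Frem1 and Lamb3, among others, lie inside the gene. That of Itga9 begins at 118711442, while the gene begins at 118606690. The GC box GGGCGG, searched on both strands with overlaps allowed, was in 15 of the 28, or 53.6%, against 35.7% of all 32851 windows. The letters TATAAA, also on both strands, were in 0 of the 28 and in 13.6% of all windows. The median window of the members held 13 CpG dinucleotides against 7 over all. The 28 windows belong to 28 different members, so no member is counted more than once. The 32851 are all windows, with no such limit per gene. These shares and medians therefore do not compare like with like, and enrichment in the members was not tested. The window of Agrn stood out in base composition with 42 CpG. Its 250 bases before the start, chr4:156197489-156197738 on the minus strand, are printed because this start is the one next to the secreted form, with capitals on the GC boxes, of which there are 12.
Agrn promoter: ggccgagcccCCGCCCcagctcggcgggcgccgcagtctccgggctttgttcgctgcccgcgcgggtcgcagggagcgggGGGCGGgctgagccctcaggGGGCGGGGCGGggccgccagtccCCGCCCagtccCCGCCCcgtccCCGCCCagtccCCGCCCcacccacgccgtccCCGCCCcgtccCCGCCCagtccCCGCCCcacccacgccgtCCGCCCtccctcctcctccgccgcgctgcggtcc

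Members known from epithelia were compared with related members known from mesenchyme or expressed broadly. The pairs were chosen with earlier results of these data known, so the calls describe these pairs and are not a test. A log2 ratio of TPM was called when its mean over the libraries was above 1 or below -1 with the same sign in both. The call is a rule of size with no p-value, since an exact sign-flip test over 2 libraries cannot go below a two-sided p of 0.5. In all 13 pairs the epithelial member was the lower by gene TPM, and 11 of 13 were called, while on the long coding scale Lama1 over Lama2 turned to 0.018. The share of other gene pairs that pass the same rule is not given, so these counts have no background beside them. The pairs are not separate results either, since Itga5, Itga2, Lama4, Lamb3 and Frem1 each occur in more than 1. In at least 3 of the pairs the other member is a broad chain (Itgb1, Lamb1 or Lamb2), which epithelial cells make as well. Whether the remaining compared members, Itgb5 among them, are confined to mesenchyme was not tested. The widest pairs were Itgb6 over Itgb5, with -6.03 in replicate 1 and -5.66 in replicate 2, and Itgb4 over Itgb1, with -5.79 and -5.88. These are 57.5-fold and 57.1-fold differences. Lamb3 was lower than Lamb1, with log2 ratios of -5.35 and -5.44, and lower than Lamb2, with -4.78 and -4.67. Lama3 over Lama4 gave -4.83 and -4.64. The epithelial chains of this laminin were therefore low against Lamb1, Lamb2 and Lama4 in each library.

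**Figure D3:**
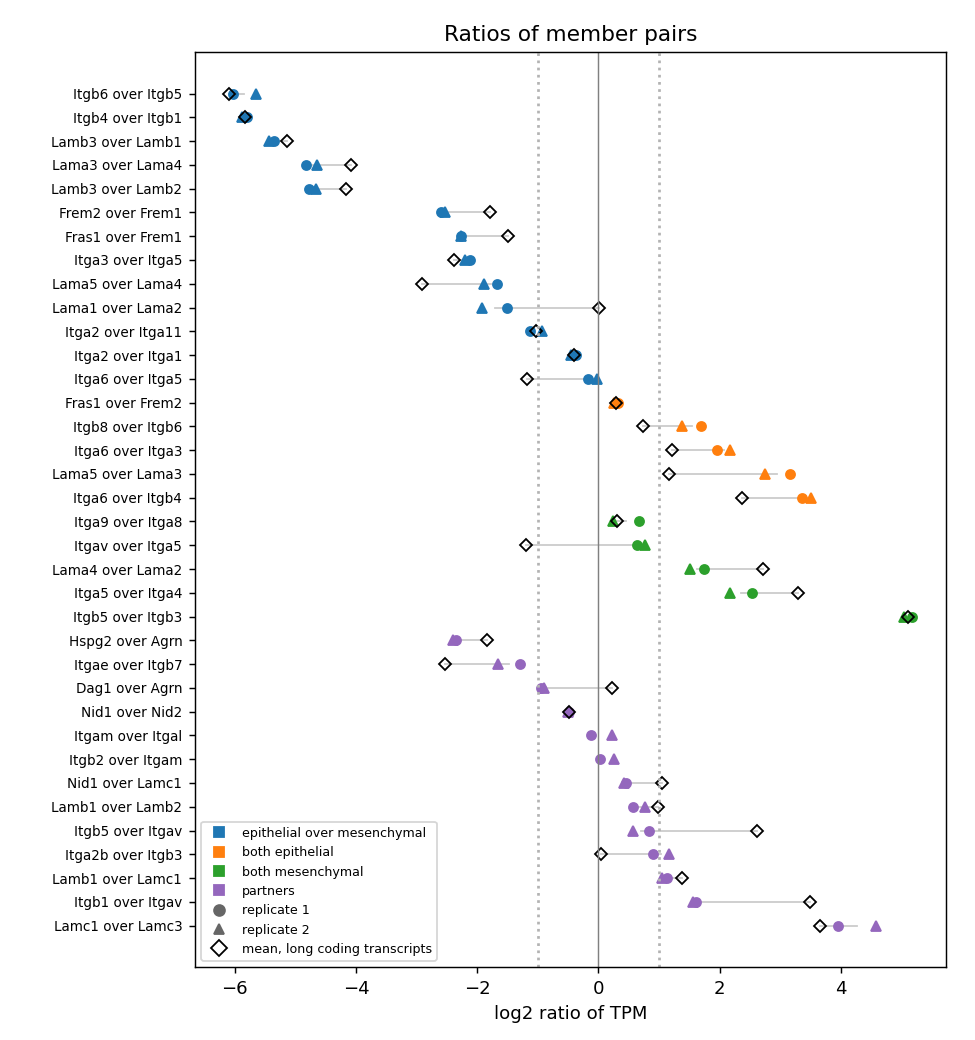
log2 ratio of TPM for 36 pairs of members, with circles for replicate 1, triangles for replicate 2 and open diamonds for the mean ratio of long coding transcripts, dotted lines marking -1 and 1. All 13 pairs of an epithelial over a mesenchymal or broad member lie left of 0 by gene TPM, and Lama1 over Lama2 moves to 0.018 on the long coding scale.

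The narrower pairs depended more on the measure. Itga3 over Itga5 was -2.12 and -2.21, Lama5 over Lama4 was -1.67 and -1.88, Fras1 over Frem1 was -2.26 and -2.27, and Frem2 over Frem1 was -2.59 and -2.53. These were called on the long coding scale as well, with means of -2.38, -2.91, -1.50 and -1.79. Lama1 over Lama2 was -1.50 and -1.92 by gene TPM and 0.018 on the long coding scale, so these chains were level when only long coding forms were counted. Itga2 over Itga11 was at the threshold with -1.12 and -0.93. Itga2 over Itga1 was not called, with -0.37 and -0.44. Itga6 over Itga5 was not called by gene TPM, with -0.17 and -0.03, and was called on the long coding scale, with a mean of -1.17. The epithelial and mesenchymal markers differed in the same direction, with a mean log2 ratio of medians of -0.80, and their part in the pair ratios was not tested.

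Of the 5 pairs within the epithelial members 4 were called. Itga6 exceeded Itga3 with log2 ratios of 1.95 and 2.18, and its epithelial partner Itgb4 with 3.37 and 3.52. Lama5 exceeded Lama3 with 3.16 and 2.75. On the long coding scale these means fell to 1.21, 2.37 and 1.17, still past the threshold. Itgb8 over Itgb6 was 1.70 and 1.38 by gene TPM, and its mean of 0.74 on the long coding scale did not pass. Fras1 and Frem2, which act in one complex, were within the threshold at 0.33 and 0.26. Of the 5 pairs within the members listed as mesenchymal 3 were called. Itgb5 over Itgb3 was 5.17 and 5.04, Itga5 over Itga4 was 2.54 and 2.18, and Lama4 over Lama2 was 1.75 and 1.52. Itgav over Itga5 was 0.64 and 0.78 by gene TPM and turned to -1.20 on the long coding scale.

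Of the 13 pairs of partners or close relatives 6 were called. Lamc1 exceeded Lamc3 with 3.96 and 4.59, and Itgb1 exceeded Itgav with 1.62 and 1.56, or 3.50 on the long coding scale. Itgb5 over Itgav was 0.84 and 0.57 by gene TPM, not called, and 2.62 on the long coding scale. Lamb1 exceeded Lamc1 with 1.13 and 1.05, a call lost with counts not divided by length (0.94) and with protein-coding transcripts (0.83). Hspg2 was lower than Agrn with -2.35 and -2.39, and it was lower on the long coding scale too, with -1.83. Itgae was lower than Itgb7 with -1.29 and -1.65, which rest on 27 and 39 counts of Itgae. That call was lost when 1 TPM was added to each level (-0.61) and with counts in place of TPM (-0.92). Itga2b over Itgb3, the chains of the platelet fibrinogen receptor, was 0.89 and 1.16 by gene TPM, and 0.046 on the long coding scale. Nid1 over Nid2 was -0.48 and -0.51, and Lamb1 over Lamb2 was 0.57 and 0.78, both within the threshold, although the latter was called at 1.04 with counts not divided by length. Itgb2 over Itgam, a leukocyte pair, was 0.02 and 0.27.

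The libraries gave similar levels for the members. Of members with a mean of 1 TPM or more, 0 differed by over 2-fold on the log2(TPM + 1) scale, against 0.252% of protein-coding genes at that level. No p-value was computed for this count. Differences, taken as replicate 2 minus replicate 1, ran from -0.40 for Itga9 to 0.35 for Itga4. Expected counts scaled by depth gave ratios of replicate 2 over replicate 1 from 0.69 for Lamc3, with a 95% Clopper-Pearson interval of 0.57 to 0.84, to 1.56 for Itgb2, with an interval of 1.03 to 2.42. The interval excluded 1 for 13 of 42 members, above 1 for 6 and below for 7, against 26.5% of the 16525 protein-coding genes with 3 or more counts in a library. Such intervals set 1 library against 1 and cover counting error only, so variation between pools of embryos is not in them. Reads were also not tagged by molecule.

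**Figure D4:**
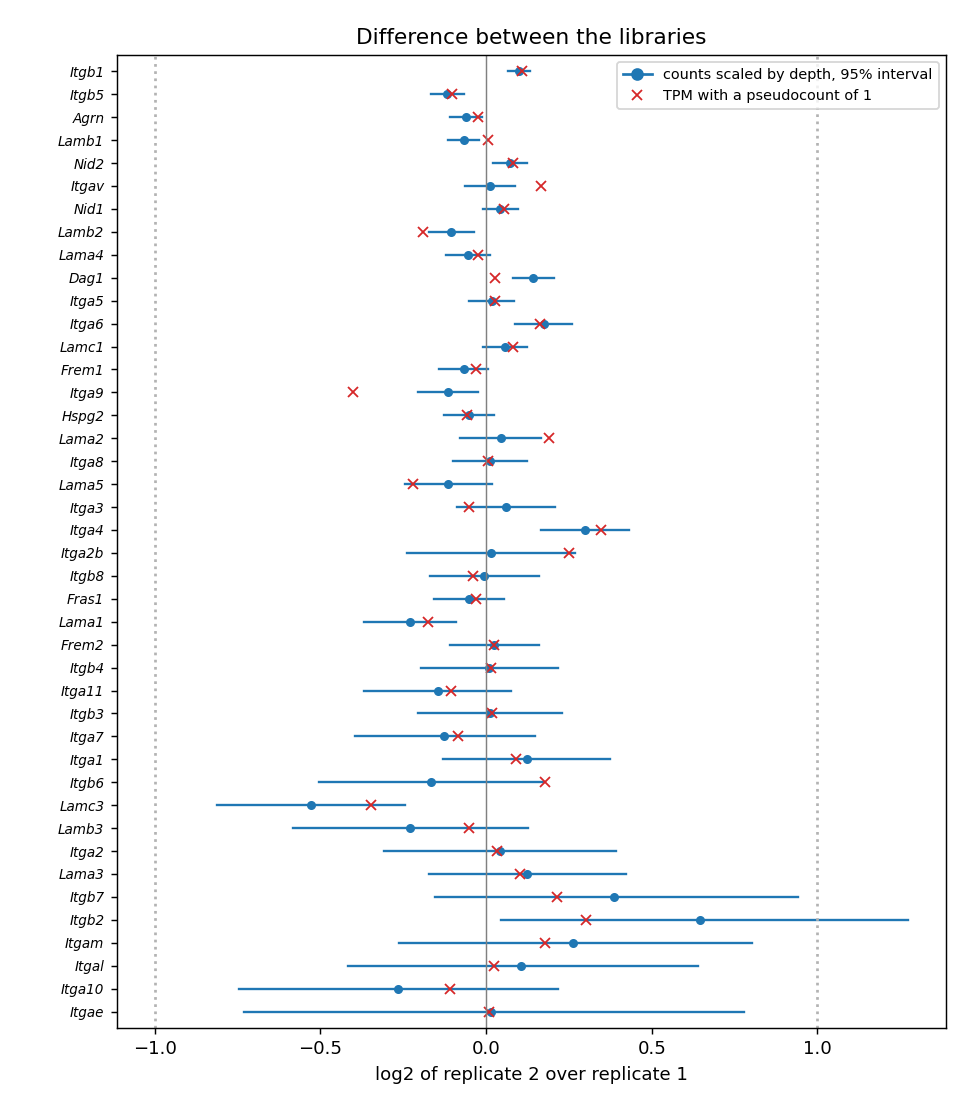
log2 ratio of replicate 2 over replicate 1 for each member, ordered by mean TPM, with blue points and lines for depth-scaled counts and their 95% intervals and red crosses for TPM with a pseudocount of 1. Every point and every cross lies within 2-fold, and for Itga9 the cross at -0.40 lies outside the interval of its counts.

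In some members the scales parted. Itga9 had 1745 counts in replicate 1 and 2304 in replicate 2, a depth-scaled ratio of 0.92 with an interval of 0.87 to 0.98. Its noncoding transcript Itga9-203, of 603 bases, held 22.2% of its level in replicate 1 but 0.15% in replicate 2. On the long coding scale Itga9 was 13.7 and 12.9 TPM. Itga4 differed by counts also, with a ratio of 1.23 and an interval of 1.12 to 1.35. Lama1 was lower in replicate 2, with a ratio of 0.85 and an interval of 0.77 to 0.94. For Itga10, the tables assign 100% to Itga10-202 in replicate 1 and 100% to Itga10-201 in replicate 2. These forms differ by 3 coding bases and had 68.6 and 81.7 counts, so which was present was not settled. The leading transcript was the same in both libraries for 38 of 42 members, the others being Itga10, Itga6, Itgae and Lama5.

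Genes that work with the members were measured from lists of related genes. Of 18 integrin adaptors 17 reached 1 TPM in both libraries. Ilk, a scaffold at the tails of beta chains, was the highest at 226.2 ± 0.21 TPM, before its partner Lims1 at 100.3 ± 3.90 and Rsu1 at 93.8 ± 6.49. The lowest were Lims2 at 1.83 TPM in each library and Parvg, a parvin of blood cells, at 0.96 ± 0.01. All 15 integrin ligands reached 1 TPM. Emilin1, a ligand of Itga4 and Itga9, had 212.0 ± 1.59 TPM, fibronectin (Fn1) had 194.9 ± 3.63 and Thbs1 had 75.2 ± 0.46. The lowest ligands were Lrrc32 at 3.60 ± 0.44 and Tgfb1 at 2.25 ± 0.63.

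Of 17 other basement membrane genes 12 reached 1 TPM. The type IV collagen chain Col4a1 had 129.5 ± 0.98 TPM, Col18a1 had 102.0 ± 3.63 and Smoc2 had 97.2 ± 2.04. Among the detected genes the lowest was Col4a3 at 0.10 ± 0.02 TPM, a chain of the mature kidney and lung. Frem3, a relative of Frem1 and Frem2, had no counts in either library, and 3 counts would have been 0.027 TPM in replicate 1. Col4a4 had 0.14 ± 0.04 TPM. All 4 hemidesmosome genes reached 1 TPM, from Dst at 22.0 ± 0.91, Plec at 20.2 ± 0.27 and Cd151 at 11.8 ± 1.07 to Col17a1 at 6.59 ± 0.65 TPM. All 14 dystroglycan partners did so, led by Pomgnt1, an enzyme that glycosylates dystroglycan, at 64.9 ± 2.63 TPM, before Sgce at 47.6 ± 1.82 and B4gat1 at 42.7 ± 0.25. Sspn at 9.24 ± 0.58 TPM and Sgca, a sarcoglycan of muscle, at 1.38 ± 0.14 were the lowest. Of 4 other integrin genes none reached 1 TPM in both libraries. Itgbl1 had 0.89 ± 0.21 TPM and Itgb2l 0.10 ± 0.03, while Itgad and Itgax were not detected.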

How the data were processed

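Total RNA libraries of 1 group (2 pools of embryos) were analysed from the authors' deposited gene and transcript tables. Per the deposited notes the tables use mm10 with GENCODE M4. Neither the aligner, the counting tool nor strandedness is given in the sources used here. The deposited expected counts are estimated reads per gene or transcript, per the file headers. The deposited TPM and posterior mean TPM values are scaled to a fixed total and the deposited FPKM values to depth. The deposited isoform percent is a transcript's percent of its gene's TPM. Names, transcript types and coordinates came from GENCODE M21 (GRCm38) by Ensembl identifier, and 42462 of 43346 mouse identifiers matched.

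Values were computed with Python 3.11.15, numpy 2.4.6, pandas 2.3.3 and scipy 1.17.1, TMM factors with edgeR 4.0.16 in R 4.3.3 on rounded counts, and plots with matplotlib 3.10.9. The calls were run on counts drawn with known changes, for protein-coding genes at 10 TPM or more only. Those draws held counting error alone. They cannot speak to lower members, to differences between pools or to errors in assigning reads to transcripts. Under 3 expected counts in both libraries meant not detected. Pair ratios used no pseudocount and library differences a pseudocount of 1 TPM. The labels call the 2 pools biological replicates, and the SD is over them. The members, pairs and lists were chosen with earlier results of these data known. All members are named, and of each related list the 3 highest and 2 lowest by mean TPM and those not detected, and of each marker list the highest and lowest. Cd8a and Col4a4 were named with their lists. Alternatives were other units, minimums, pseudocounts, transcript classes and each library alone. A comparison of protein sequences was not run. Some related genes are not reported here.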

Additional observations from a re-analysis of the deposited data

How the results depend on the processing

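Calls are rules of size with no p-value. No paired analysis was possible because there is only 1 group. Of the 36 pairs, 24 were called, and 15 at a log2 threshold of 2. FPKM and TPM over mouse genes alone left all 36 calls as they were. Both rescale all genes of a library alike, so apart from rounding no pair ratio could change. These 2 settings therefore did not test the calls. Counts not divided by length left 20 of the 24 called and gained 2, a pseudocount of 1 TPM left 21, and long coding transcripts, a measure chosen after seeing the data, left 21 and gained 4 over 34 pairs, since Itgam had no long coding level in replicate 1. Protein-coding transcripts left 20 and gained 1 over those 34, and the posterior mean TPM left 23. Itga6 over Itga5 became called at -1.17 with protein-coding or long coding transcripts. Itga2 over Itga11 was no longer called with a pseudocount of 1 TPM (-0.72), and ranged from -1.12 to -0.93 when 1 library was left out, losing the call without replicate 1. Lama1 over Lama2 lost its call without division by length (-0.39) and with protein-coding transcripts (-0.094), and reversed to 0.018 with long coding ones. Itgav over Itga5 reversed to -1.20 with long coding transcripts, and Itga2b over Itgb3 to -0.45 without division by length. Whether the short transcripts are real was not tested. Member counts moved by less than 1.5 times in each alternative run. Depth limits the low members: Itgae had 27 and 39 counts.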
